A study of Mus musculus with 9 samples.

Results

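Glypicans and syndecans are the 2 main families of cell surface heparan sulfate proteoglycans, and 9 of their genes (Gpc1, Gpc2, Gpc3, Gpc4, Gpc6, Sdc1, Sdc2, Sdc3 and Sdc4) were described here across 9 mouse liver tumors. The members were chosen by gene symbol, as 9 of the 24421 symbols measured, and all 9 passed the filter on low values. Gpc5, the remaining glypican, was listed at 0 in 9 of 9 tumors. The groups S7HP+Snail, S7HP and LHP held 3 tumors each, and the mice were C57BL/6 animals at an age of 11 weeks. The column headings of the files read Smad72A-snail for S7HP+Snail, Smad72A for S7HP and Luc2A for LHP. The labels do not spell out the letters H and P, which all 3 group names share, and they give no promoter, delivery route or number of animals. P-values therefore measure the spread between these tumors, which may not be separate animals. Smad7 is the inhibitory Smad that blocks signaling from TGF-β receptors, and Snail, encoded by Snai1, is a repressor of epithelial genes.

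Glypicans are tied to the outer membrane by a lipid (GPI) anchor, whereas syndecans cross the membrane and carry a short cytoplasmic tail that binds cytoskeletal and PDZ-domain proteins. Both carry heparan sulfate chains, which bind growth factors such as FGFs, Wnts and Hedgehog proteins, as well as chemokines and matrix proteins, and so set how much of each factor reaches its receptor. In liver, syndecan-1 on hepatocytes takes up lipoprotein remnants, and glypican-3 is abundant in fetal liver, nearly silent in adult liver and found again in many hepatocellular carcinomas.

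QuantSeq libraries were prepared, with 500 ng of total RNA per tumor, a method in which reads start near the 3′ end of a transcript. Each transcript thus gives about 1 read whatever its length, and levels of different genes can be set side by side, apart from how well each 3′ end is annotated. Values are log2(normalized count + 1) as deposited, after quantile normalization that gave all libraries totals between 19910396 and 19911234 normalized counts. The third value above 0, taken as about 3 reads, lay between 1.22 and 2.64 on that scale, well under the lowest member value of 5.24. Snai1 averaged 8.10 ± 0.69 in S7HP+Snail, 6.48 ± 0.39 in S7HP and 10.69 ± 0.66 in LHP, and Smad7 averaged 7.36 ± 0.62, 6.52 ± 0.27 and 10.07 ± 0.52 in the same groups (SD, n = 3 each). A construct is counted here only if it carries the mouse gene's 3′ end, so these levels do not check the labels. The hepatocyte marker albumin averaged 15.99 in S7HP+Snail, 16.22 in S7HP and 13.50 in LHP tumors, and the S7HP+Snail tumor 14 stood apart from tumors 13 and 15 for several members described below.

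On GRCm38 (GENCODE M21), Gpc3 spans chromosome X, 52272426 to 52613950, and Gpc4 lies beside it at 52053021 to 52165252, both on the minus strand with a gap of 107173 bases. Gpc1 lies on chromosome 1 (92831645 to 92860779, plus strand), Gpc2 on chromosome 5 (138273655 to 138280005, minus) and Gpc6 on chromosome 14 (116925315 to 117976544, plus). Sdc1 lies on chromosome 12 (8771323 to 8793715, plus), Sdc2 on chromosome 15 (32920723 to 33034935, plus), Sdc3 on chromosome 4 (130792537 to 130826319, plus) and Sdc4 on chromosome 2 (164424247 to 164443887, minus). All are protein-coding genes. The 3′ end of Gpc1 overlaps Ankmy1 on the other strand, which was listed at 0 in 9 of 9 tumors, and the 3′ end of Gpc2 overlaps the predicted gene Gm43720 on the same strand, not analysed here. The 3′ end of Sdc3 overlaps the antisense gene Gm26716 on the other strand, which is not among the symbols measured.

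RefSeq start sites on GRCm38.p6 were matched for 6 of the 9 members. The 250 bases upstream of the start are shown for Gpc3 and Sdc3, the matched members that differed between groups, with motif matches in capitals, 5′ to 3′ on the gene's strand. They cover chrX:52613975-52614224 (minus strand) for Gpc3 and chr4:130792287-130792536 (plus strand) for Sdc3.
Gpc3: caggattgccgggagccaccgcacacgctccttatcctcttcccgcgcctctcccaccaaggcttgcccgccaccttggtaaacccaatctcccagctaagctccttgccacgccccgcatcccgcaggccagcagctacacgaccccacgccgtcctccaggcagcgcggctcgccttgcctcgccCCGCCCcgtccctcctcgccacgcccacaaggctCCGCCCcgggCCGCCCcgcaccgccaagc
Sdc3: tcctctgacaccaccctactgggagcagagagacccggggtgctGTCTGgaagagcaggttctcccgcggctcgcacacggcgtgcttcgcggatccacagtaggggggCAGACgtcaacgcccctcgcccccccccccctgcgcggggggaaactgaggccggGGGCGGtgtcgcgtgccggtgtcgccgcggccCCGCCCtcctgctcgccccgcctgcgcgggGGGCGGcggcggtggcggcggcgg
The capitals mark GGGCGG (the GC box) and GTCTG (the short element that Smad proteins bind), searched on both strands, where neither motif overlaps the other. Gpc3 held 3 GC boxes and 0 GTCTG matches, and Sdc3 held 3 GC boxes and 2 GTCTG matches. CAGGTG, the E-box that Snail family factors bind, was found in 0 of the 6 members' windows. Of 32851 upstream windows of the same length, 17.2% held CAGGTG, 42.2% held GTCTG and 32.7% held GGGCGG. The GC content was 71.6% for Gpc3 and 76.4% for Sdc3, against a median of 52.4% over all windows. These are matches of letters and say nothing of binding.

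Of the 9 members, Gpc3 was higher and Gpc1 lower in both S7HP+Snail and S7HP tumors than in LHP tumors, Sdc3 was lower in S7HP, and none was called between S7HP+Snail and S7HP. A call is an adjusted p under 0.05 from limma (Benjamini-Hochberg, over all genes tested). S7HP against LHP gave 1 call higher (Gpc3) and 2 lower (Gpc1 and Sdc3), where 19% of the 14215 genes tested were called in either direction, 9.47% higher and 9.54% lower. The members' median difference was -0.40, against 0.02 over all genes tested. S7HP+Snail against LHP gave 1 call higher (Gpc3) and 1 lower (Gpc1), beside 7.22% of all genes called, 3.35% higher and 3.87% lower, with a median of -0.48 against 0.00. S7HP+Snail against S7HP gave 0 calls by limma, beside 2.3% of all genes (1.01% higher and 1.29% lower), with a median of 0.95 against -0.02. At an unadjusted limma p under 0.05, 2 members were higher (Gpc1 and Gpc6). The share of all genes at that unadjusted threshold is not given here. Unadjusted counts, for the members and for the gene lists below, are therefore descriptions only. Groups did not overlap for 4, 4 and 1 of the 9 members in these 3 comparisons, beside 42.1%, 30.5% and 20.5% of all genes tested. Counts this small, among 9 genes, are not read as particular to the families. The comparisons share tumors, S7HP in the first and last and LHP in the first 2, so their values are not independent.

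**Figure D1:**
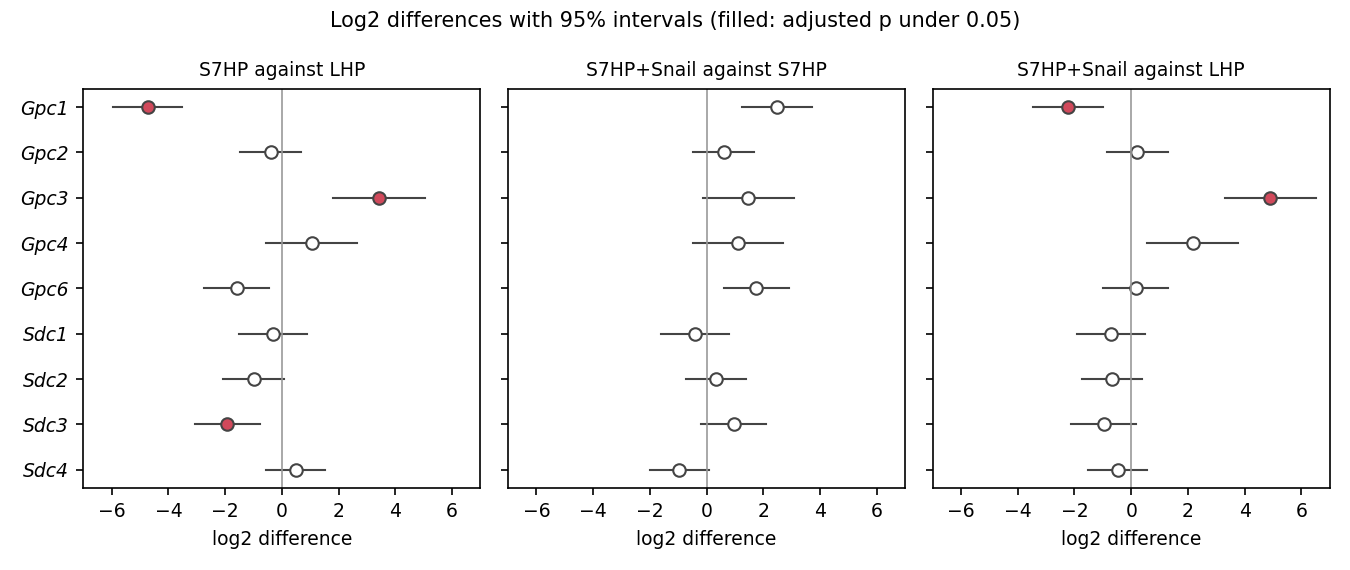
Log2 difference (horizontal axis) with its 95% interval from limma for each of the 9 members in the 3 comparisons, the first-named group minus the second, with filled points for an adjusted p under 0.05. Gpc1 (-4.74) and Gpc3 (3.42) lie farthest from 0 in S7HP against LHP, and no point is filled in S7HP+Snail against S7HP.

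Among the 9 members the differences from LHP farthest from 0 were those of the glypicans Gpc1 and Gpc3. By mean log2 level the order was Gpc3, Gpc4, Gpc1, Gpc6 and Gpc2 in S7HP+Snail, where only Gpc2 stood apart from its neighbour without overlap. In S7HP the order was Gpc4, Gpc3, Gpc1, Gpc6 and Gpc2, and the ranges overlapped for Gpc4 and Gpc3 and for Gpc1 and Gpc6. In LHP the order was Gpc1, Gpc6, Gpc4, Gpc2 and Gpc3, with Gpc1 above Gpc6 by 3.22 and overlap between Gpc6 and Gpc4 and between Gpc2 and Gpc3.

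Gpc1, a glypican of many tissues that acts as a co-receptor for FGFs, was at 10.68, 9.60 and 8.48 in S7HP+Snail tumors 13, 14 and 15, at 6.15, 7.66 and 7.45 in S7HP tumors 9, 11 and 12, and at 11.56, 11.81 and 12.11 in LHP tumors 2, 3 and 6. No 2 groups overlapped, with S7HP lowest and LHP highest. Against LHP, Gpc1 fell by 4.74 ± 0.55 (SE) in S7HP, or 26.7-fold, in 3 of 3 tumors (limma, Benjamini-Hochberg adjusted p = 0.000982), and it was the gene with rank 159 among 14215 when ordered from the deepest fall. In S7HP+Snail it fell by 2.24 ± 0.55 against LHP, in 3 of 3 tumors (limma adjusted p = 0.0407). Against S7HP it was 2.50 ± 0.55 higher with Snail, in 3 of 3 tumors, just outside the threshold (limma adjusted p = 0.0508, 95% interval 1.27 to 3.73). Of 15 alternatives, 10 ended the S7HP+Snail call against LHP (adjusted p up to 0.17). These included the fits that lacked any 1 LHP tumor, tumor 11 or 12 of S7HP, or tumor 14 or 15 of S7HP+Snail. The difference from S7HP passed without tumor 15 (3.05, adjusted p = 0.0198).

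Gpc3, the oncofetal glypican that binds Wnt and Hedgehog ligands and whose loss causes an overgrowth syndrome in humans, was at 11.46, 11.45 and 9.38 in S7HP+Snail tumors 13, 14 and 15, at 10.80, 8.14 and 8.92 in S7HP tumors 9, 11 and 12, and at 5.75, 6.30 and 5.52 in LHP tumors 2, 3 and 6. Every S7HP and S7HP+Snail tumor lay above every LHP tumor, while the S7HP+Snail and S7HP ranges overlapped. Gpc3 was 4.90 ± 0.72 (SE) higher in S7HP+Snail than in LHP, or 29.9-fold (limma adjusted p = 0.00632), which was rank 51 of 14215 from the largest rise. In S7HP it was 3.42 ± 0.72 higher than in LHP, or 10.7-fold (limma adjusted p = 0.0115). Without S7HP tumor 9 that difference was 2.67 (adjusted p = 0.0311), and without S7HP+Snail tumor 15 the difference of S7HP+Snail from LHP was 5.59 (adjusted p = 0.0042). Both calls held in 14 of 15 alternatives and were lost with no filter on low values (adjusted p = 0.0616 for S7HP+Snail and 0.0763 for S7HP). Between S7HP+Snail and S7HP the difference was 1.48 ± 0.72, which did not pass (limma adjusted p = 0.325, 95% interval -0.13 to 3.09).

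Gpc4, the X-linked neighbour of Gpc3, was at 10.36, 11.11 and 9.80 in S7HP+Snail tumors 13, 14 and 15, at 11.15, 7.78 and 8.98 in S7HP tumors 9, 11 and 12, and at 8.10, 8.13 and 8.55 in LHP tumors 2, 3 and 6. S7HP tumor 9 was high and S7HP tumor 11 lay below the LHP range, which gave S7HP an SD of 1.71. Gpc4 was 2.16 ± 0.71 (SE) higher in S7HP+Snail than in LHP without overlap and 1.05 ± 0.71 higher in S7HP than in LHP, and neither passed (limma adjusted p = 0.0975 and 0.330). The first passed without S7HP tumor 9 and with only the 6 libraries compared (adjusted p down to 0.0196). Within a tumor, Gpc3 and Gpc4 differed by 1.09, 0.34 and -0.42 in S7HP+Snail, by -0.35, 0.35 and -0.07 in S7HP and by -2.35, -1.83 and -3.03 in LHP (log2 Gpc3 minus log2 Gpc4, same tumor order). The difference was higher in S7HP than in LHP by 2.38 (exact permutation test, two-sided, p = 0.1, the smallest that 3 tumors against 3 allow, and 0.231 after Benjamini-Hochberg adjustment over the 30 such tests made here).

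Gpc6, a member of the same subfamily as Gpc4, was at 9.47, 7.57 and 9.25 in S7HP+Snail tumors 13, 14 and 15, at 6.85, 6.51 and 7.66 in S7HP tumors 9, 11 and 12, and at 8.86, 8.78 and 8.17 in LHP tumors 2, 3 and 6. All S7HP tumors lay below all LHP tumors, and tumor 14 alone brought S7HP+Snail into the S7HP range. The difference of S7HP from LHP was -1.60 ± 0.51 (SE), just outside the threshold (limma adjusted p = 0.054), and that of S7HP+Snail from S7HP was 1.76 ± 0.51 (limma adjusted p = 0.106). The first passed when tumor 12 of S7HP or tumor 13 or 14 of S7HP+Snail was left out (adjusted p down to 0.0113), and the second passed without tumor 14 (2.35, adjusted p = 0.0192). Gpc2, a glypican mainly of developing neurons, was low throughout, between 5.86 and 7.03 in S7HP+Snail, between 5.24 and 6.36 in S7HP and between 5.84 and 6.87 in LHP. Its ranges overlapped in each pair of groups, and its differences lay between -0.40 and 0.61 (limma adjusted p = 0.553 to 0.820).

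**Figure D2:**
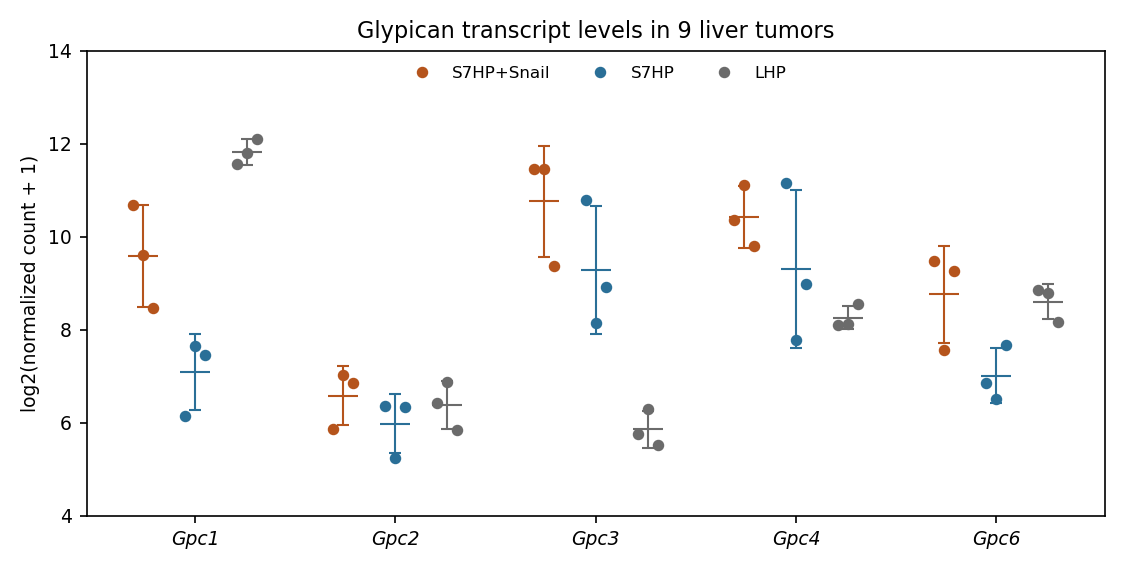
Levels of the 5 glypicans as log2(normalized count + 1) on the vertical axis, with 1 point per tumor and the mean and SD of 3 tumors as a line with bars, for S7HP+Snail, S7HP and LHP from left to right. Gpc1 is low in S7HP (mean 7.09) and high in LHP (11.83), and Gpc2 lies in the same range in all groups. Gpc3 is higher in S7HP (9.28) than in LHP (5.86) and has its highest mean in S7HP+Snail (10.76).

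In the make-up of the glypican pool, Gpc1 led in LHP tumors and Gpc3 and Gpc4 together led in the others. As a share of the summed normalized counts of the 5 glypicans in each tumor, Gpc1 made up 25.1%, 12.7% and 13.5% in S7HP+Snail tumors 13, 14 and 15, 1.62%, 24.3% and 12.1% in S7HP tumors 9, 11 and 12, and 77.5%, 79.8% and 85.3% in LHP tumors 2, 3 and 6. Gpc3 made up 43.0%, 45.8% and 25.2% in S7HP+Snail, 41.2%, 33.8% and 33.4% in S7HP and 1.36%, 1.73% and 0.867% in LHP. Gpc1 was thus the majority of glypican transcripts in every LHP tumor and a minority in the other 6 tumors. The mean Gpc3 share was 38.0 ± 11.1% in S7HP+Snail, 36.2 ± 4.39% in S7HP and 1.32 ± 0.432% in LHP (SD, n = 3 each), and the mean Gpc4 share was 30.1 ± 8.65%, 38.0 ± 13.3% and 6.81 ± 0.543% in the same groups. The shares of Gpc1, Gpc3 and Gpc4 each separated S7HP from LHP and S7HP+Snail from LHP without overlap (exact permutation test, two-sided, p = 0.1 for each, the smallest possible, and 0.231 after adjustment over the 30 tests). Between S7HP+Snail and S7HP the shares overlapped (exact permutation p = 0.4 to 0.8). Shares of 1 sum are tied, since a fall in 1 gene raises the shares of the others. The separations, here and for the syndecan shares below, are therefore not independent results. In S7HP tumor 11 the Gpc4 share was 26.5%, though its Gpc4 level of 220 normalized counts lay below every LHP tumor.

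The summed level of all 5 glypicans did not separate the groups. It was 6526, 6091 and 2634 normalized counts in S7HP+Snail tumors 13, 14 and 15, 4323, 828 and 1442 in S7HP tumors 9, 11 and 12, and 3898, 4498 and 5188 in LHP tumors 2, 3 and 6. S7HP tumors 11 and 12 held the fewest glypican transcripts, while S7HP tumor 9 lay within the LHP range. On the log2 scale the sum was 1.45 higher in S7HP+Snail than in S7HP (exact permutation test, p = 0.2), 1.38 lower in S7HP than in LHP (exact permutation test, p = 0.2) and 0.07 higher in S7HP+Snail than in LHP (exact permutation test, p = 1).

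**Figure D3:**
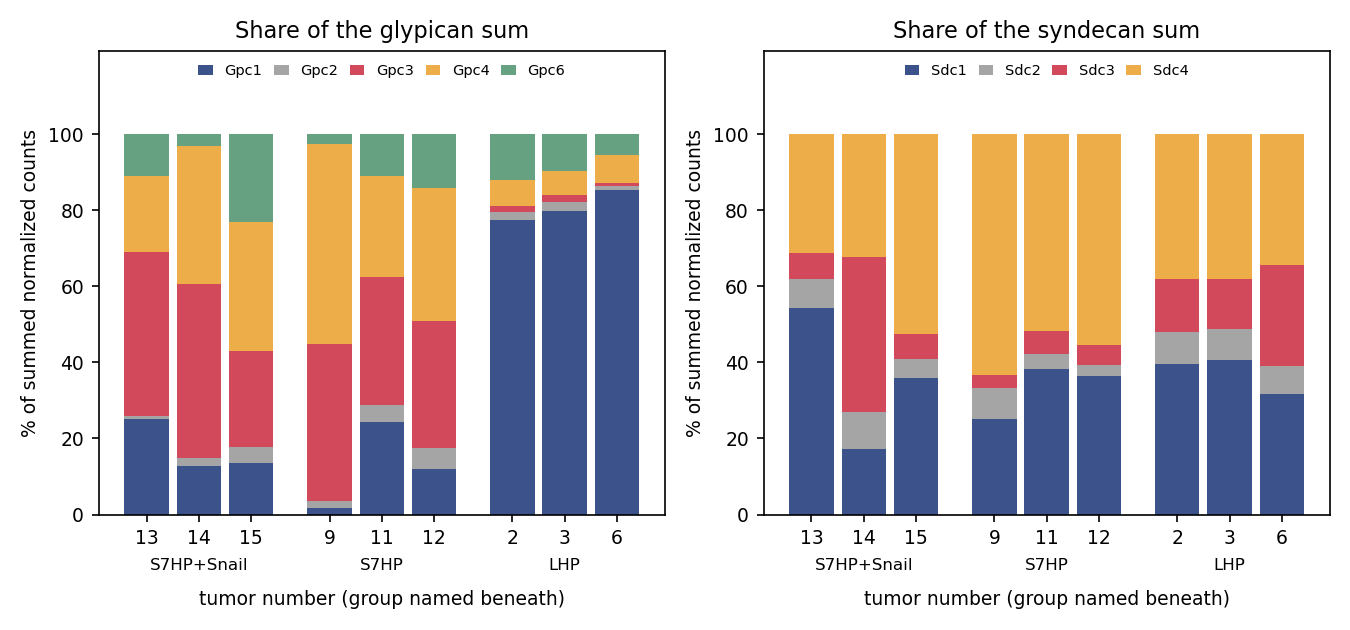
Share of each gene in the summed normalized counts of its family (vertical axis, percent) in each tumor, with glypicans on the left and syndecans on the right and the groups ordered S7HP+Snail, S7HP and LHP. Gpc1 fills 77.5% to 85.3% of the LHP bars and at most 25.1% of the others, and tumor 14 stands out among syndecans with a Sdc3 share of 40.6%.

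Syndecans were the more abundant family in 8 of 9 tumors, with tumor 14 the exception. Their sum was 8351, 5657 and 11240 normalized counts in S7HP+Snail tumors 13, 14 and 15, 14089, 7268 and 11462 in S7HP tumors 9, 11 and 12, and 8436, 15838 and 11481 in LHP tumors 2, 3 and 6, and these ranges overlapped. Of the 4 syndecans only Sdc3 was called, in S7HP against LHP. Sdc1 and Sdc4 had the 2 highest means in every group, with overlapping ranges, and Sdc3 and Sdc2 followed, also with overlapping ranges. The 4 ranges formed 1 overlapping chain in S7HP+Snail, while in S7HP and LHP the lower of the leading pair stood above Sdc3 by 2.76 and by 1.13 on the log2 scale without overlap.

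Sdc3, known best from neurons, was at 9.13, 11.17 and 9.55 in S7HP+Snail tumors 13, 14 and 15, at 8.93, 8.80 and 9.26 in S7HP tumors 9, 11 and 12, and at 10.20, 11.01 and 11.57 in LHP tumors 2, 3 and 6. All S7HP tumors lay below all LHP tumors, and among the S7HP+Snail tumors only tumor 14 was at the LHP level. Sdc3 fell by 1.93 ± 0.51 (SE) in S7HP against LHP, in 3 of 3 tumors (limma adjusted p = 0.0291). That call was lost without LHP tumor 3 or 6, without any 1 S7HP tumor and with no filter (adjusted p up to 0.129). The Sdc3 share of the syndecan sum was 4.98 ± 1.39% in S7HP and 17.8 ± 7.57% in LHP (SD, n = 3 each). Its exact permutation p was 0.1, and 0.231 after adjustment over the 30 tests. In S7HP+Snail the share was 18.0 ± 19.6%, where tumor 14 held 40.6% and tumors 13 and 15 held 6.70% and 6.68%. Against LHP, S7HP+Snail differed by -0.98 ± 0.51 (limma adjusted p = 0.270), and without tumor 14 by -1.58, which passed (adjusted p = 0.0413).

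Sdc1, the syndecan of epithelia and plasma cells, was at 12.15, 9.93 and 11.97 in S7HP+Snail tumors 13, 14 and 15, between 11.45 and 12.03 in S7HP and between 11.70 and 12.65 in LHP. Tumor 14 was the lowest of the 9 and the other 8 lay within 1.20 of each other on the log2 scale. No difference passed, at -0.30 ± 0.54 in S7HP and -0.71 ± 0.54 in S7HP+Snail against LHP (SE; limma adjusted p = 0.728 and 0.446), and without tumor 14 the S7HP+Snail difference was 0.002. The 10 biliary and progenitor markers were also lowest in tumor 14, with a summed level of 29827 normalized counts against 138183 in tumor 13 and 345983 in tumor 15, and their part in the Sdc1 level was not tested. The share of Sdc1 in the syndecan sum was 35.8 ± 18.6% in S7HP+Snail, 33.4 ± 7.10% in S7HP and 37.3 ± 4.92% in LHP (SD, n = 3 each), with overlap in each pair of groups (exact permutation p = 0.5 to 1). The summed level of the 7 B and plasma cell markers measured ran from 27.9 to 39.6 normalized counts in S7HP+Snail, 26.4 to 241 in S7HP and 170 to 4697 in LHP, and their part in the Sdc1 level was not tested.

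Sdc4, the widely expressed syndecan of focal adhesions, was at 11.35, 10.84 and 12.53 in S7HP+Snail tumors 13, 14 and 15, at 13.12, 11.87 and 12.63 in S7HP tumors 9, 11 and 12, and at 11.65, 12.56 and 11.95 in LHP tumors 2, 3 and 6. The ranges overlapped, and its differences were 0.49 ± 0.46 (SE) for S7HP against LHP, -0.97 ± 0.46 for S7HP+Snail against S7HP and -0.48 ± 0.46 for S7HP+Snail against LHP (limma adjusted p = 0.489, 0.316 and 0.559). As a share of the syndecan sum, Sdc4 was 56.8 ± 5.99% in S7HP and 36.8 ± 2.15% in LHP without overlap, against 38.7 ± 11.9% in S7HP+Snail (SD, n = 3 each). For S7HP against LHP the exact permutation p of this share was 0.1, and 0.231 after adjustment over the 30 tests. Sdc2, mostly a syndecan of mesenchymal cells and also of hepatocytes, lay between 9.12 and 9.30 in S7HP+Snail, between 8.12 and 10.13 in S7HP and between 9.50 and 10.35 in LHP. S7HP tumor 9 reached the LHP range and the other S7HP tumors did not, and the difference of S7HP from LHP was -1.001 ± 0.48 (limma adjusted p = 0.169), or -1.63 without tumor 9, which passed (adjusted p = 0.0126). All S7HP+Snail tumors lay below all LHP tumors in Sdc2, by a mean of 0.68 that did not pass (limma adjusted p = 0.414).

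**Figure D4:**
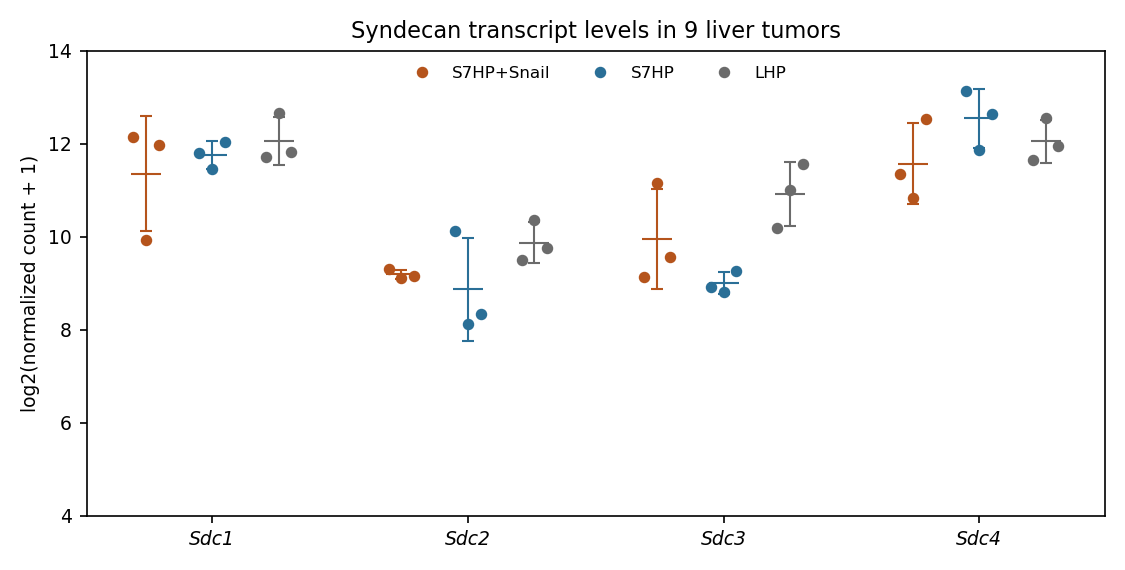
Levels of the 4 syndecans as log2(normalized count + 1) on the vertical axis, with 1 point per tumor and the mean and SD of 3 tumors, for S7HP+Snail, S7HP and LHP from left to right. Sdc1 and Sdc4 are highest in all groups, Sdc3 is lower in S7HP (mean 9.00) than in LHP (10.93), and tumor 14 lies apart for Sdc1 (9.93) and Sdc3 (11.17).

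The tumors also differed in markers of other cell types, and in bulk tissue fewer cells of a type and less RNA per cell cannot be told apart. The 14 stellate cell and fibroblast markers summed to between 16163 and 23447 normalized counts in S7HP+Snail, 7774 and 12260 in S7HP and 42027 and 56158 in LHP, the same order of groups as for Gpc1 and Sdc3, with 0 markers higher and 6 of 14 lower in S7HP against LHP (limma). The 12 hepatocyte markers summed to between 128752 and 246502 in S7HP+Snail, 172357 and 456959 in S7HP and 39591 and 68465 in LHP. Beside the rise of Gpc3, 6 of these 12 were higher and 0 lower in S7HP against LHP (limma), where 9.47% of all genes were higher. The 12 macrophage markers summed to 12722 in tumor 14 and 12775 in LHP tumor 6, the 2 highest, and these were among the 3 tumors with most Sdc3; the other S7HP+Snail tumors had 7514 and 6492. None of these markers was listed at 0 in all tumors, and their part in the results was not tested.

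By likeness over the 9 tumors, measured as the root mean square difference of values centred on each gene's own mean, the genes nearest to Gpc1 were Kif26b (0.50), Chst11 (0.56) and Lama1 (0.56), where Gpc1 itself varied by 2.04 about its mean. Chst11 is a chondroitin sulfotransferase and Lama1 a laminin chain. Nearest to Gpc3, which varied by 2.23, were the carboxylesterase gene Ces2g (0.58), the cytochrome P450 gene Cyp3a16 (0.68) and the sulfotransferase gene Sult1b1 (0.74), of which Cyp3a16 has close relatives that may share its reads. Nearest to Sdc3, which varied by 0.997, were Unc93b1 (0.23), which moves nucleic acid sensing Toll-like receptors to endosomes, Atxn1 (0.27) and the endolysosomal exonuclease gene Pld4 (0.30). Levels of these neighbours differed with those of their member by choice, for instance a Chst11 mean of 5.94 in S7HP and 10.26 in LHP beside Gpc1, and a Ces2g mean of 8.46 in S7HP and 5.24 in LHP beside Gpc3. Lama1 was listed at 0 in 3 of 3 S7HP tumors and averaged 2.39 in S7HP+Snail and 4.53 in LHP. It passed the filter on low values only through the LHP tumors, so it had to differ, and these levels are a description.

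Within 1 Mb on either side of the X-linked pair lie 14 other protein-coding genes, of which 12 were in the files and 6 passed the filter. In S7HP against LHP, 1 of these 6 rose (Hprt, by 0.92 ± 0.24), 1 fell (Hs6st2, by 1.58 ± 0.45) and 4 did not pass (limma adjusted p = 0.0269 for Hprt and 0.0371 for Hs6st2). The 2 called of 6 stand beside 19% of all genes called. Hs6st2 fell and 0 rose in S7HP+Snail against LHP, or 1 of 6 beside 7.22%, and in S7HP+Snail against S7HP 0 of 6 were called by limma, beside 2.3%. These genes were chosen by position after the values of Gpc3 and Gpc4 were seen.

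The heparan sulfate machinery was followed in lists of genes. Of all genes tested, 9.47% were called higher and 9.54% lower in S7HP against LHP. The shares were 3.35% and 3.87% in S7HP+Snail against LHP, and 1.01% and 1.29% in S7HP+Snail against S7HP. Counts near these shares, here and in the lists below, are not read as particular to a list. Of 15 tested genes for chain start and elongation, 1 rose and 2 fell in S7HP against LHP: Ugdh, which makes the UDP-glucuronic acid used in the chain, rose by 1.20 ± 0.28 (SE), and Ext2, a subunit of the chain polymerase, and Papss1, which makes the sulfate donor, fell by 1.09 ± 0.25 and by 1.19 ± 0.22 (limma adjusted p = 0.0176, 0.0151 and 0.00657). In S7HP+Snail against LHP 1 of the 15 rose, Papss2, the other enzyme for the sulfate donor (1.73 ± 0.39, limma adjusted p = 0.0306), and 0 fell. The call of Papss1 held in all 15 alternatives. That of Ugdh ended when tumor 2 or 6 of LHP or tumor 11 or 12 of S7HP was left out (adjusted p up to 0.067), that of Ext2 without LHP tumor 3 or 6 (up to 0.066), and that of Papss2 without any 1 LHP tumor or S7HP+Snail tumor 13 or 14 (up to 0.127). In S7HP+Snail against S7HP 0 of the 15 were called by limma, with 1 higher and 0 lower at an unadjusted p under 0.05. The list's median difference was -0.05 in S7HP against LHP and 0.04 in S7HP+Snail against S7HP, where the medians of all genes were 0.02 and -0.02.

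Of 10 tested genes for sulfation and epimerisation, 0 rose and 3 fell in S7HP against LHP, beside 9.54% of all genes lower. The 3 that fell in S7HP+Snail against LHP, beside 3.87% of all genes, were the same genes, Ndst3, Hs6st2 and Hs3st5. Hs3st5 passed the filter on low values only through the LHP tumors, so it had to differ, and its place in both counts is a description. Ndst3, an N-sulfating enzyme, was at 0.42, 2.61 and 5.91 in S7HP+Snail tumors 13, 14 and 15, at 0.00, 4.79 and 6.02 in S7HP tumors 9, 11 and 12, and at 9.80, 10.10 and 10.05 in LHP tumors 2, 3 and 6. Hs6st2, a 6-O-sulfotransferase, averaged 7.64 ± 0.82 in S7HP+Snail, 8.46 ± 0.54 in S7HP and 10.03 ± 0.51 in LHP (SD, n = 3 each). Hs3st5, a 3-O-sulfotransferase, was listed at 0 in all 6 S7HP+Snail and S7HP tumors and at 5.68, 4.43 and 4.24 in LHP tumors 2, 3 and 6. For each of these genes LHP stood above both other groups without overlap, which for Hs3st5 was fixed by the filter. Of all genes tested, 42.1% did not overlap in S7HP against LHP and 30.5% in S7HP+Snail against LHP. Adjusted p was 0.0237 for Ndst3 and 0.0371 for Hs6st2 in S7HP against LHP, and 0.033 for Ndst3 and 0.0162 for Hs6st2 in S7HP+Snail against LHP (limma). The call of Hs6st2 in S7HP ended in 7 of 15 alternatives, which included fits that lacked LHP tumor 2 or 6 or any 1 S7HP tumor, and that of Ndst3 ended in 5, which included fits that lacked any 1 LHP tumor or S7HP tumor 9 (adjusted p up to 0.140 and 0.123). In S7HP+Snail the calls of Hs6st2 and Ndst3 were lost in 3 and 7 alternatives, without LHP tumor 2 or 6 for both, and without LHP tumor 3 or S7HP+Snail tumor 13 or 14 for Ndst3. The size of the Ndst3 difference moved with single tumors, between -7.59 and -4.57 in S7HP without tumor 12 or 9, and between -8.47 and -5.72 in S7HP+Snail without tumor 15 or 13. In S7HP+Snail against S7HP 0 of the 10 were called by limma, with 2 higher and 0 lower at an unadjusted p under 0.05.

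Of 17 tested genes for editing, turnover and release, 2 rose and 4 fell in S7HP against LHP, beside 9.47% of all genes higher and 9.54% lower. Sulf2, an extracellular enzyme that removes 6-O-sulfates from heparan sulfate, was at 11.33, 10.73 and 11.69 in S7HP+Snail tumors 13, 14 and 15, at 7.79, 8.66 and 7.88 in S7HP tumors 9, 11 and 12, and at 11.19, 10.11 and 11.07 in LHP tumors 2, 3 and 6. It was low in all S7HP tumors and overlapped between S7HP+Snail and LHP. Sulf2 was 3.14 ± 0.37 (SE) higher in S7HP+Snail than in S7HP and fell by 2.68 ± 0.37 in S7HP against LHP (limma adjusted p = 0.00517 and 0.00205), and the first of these calls ended with no filter (adjusted p = 0.0548). With Snail, the protease genes Adam10, which encodes a sheddase, and Mmp9 also rose against S7HP, by 1.23 ± 0.27 and by 2.79 ± 0.60 (limma adjusted p = 0.0478 and 0.0454), and 0 of the 17 fell. Those 2 calls ended in 11 and 9 of 15 alternatives, which included fits that lacked any 1 S7HP tumor or S7HP+Snail tumor 14 for both, S7HP+Snail tumor 13 or any 1 LHP tumor for Adam10, and S7HP+Snail tumor 15 or LHP tumor 2 for Mmp9 (adjusted p up to 0.156 and 0.204).

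The other calls in that list for S7HP against LHP were rises of Arsg, a lysosomal sulfatase for heparan sulfate (4.23 ± 0.56), and of heparanase, Hpse (1.79 ± 0.38), and falls of Sulf1 (-2.93 ± 0.71), Mmp9 (-3.01 ± 0.60) and the lysosomal iduronate sulfatase gene Ids (-1.41 ± 0.29), with adjusted p of 0.00161, 0.0113, 0.0201, 0.00901 and 0.0111 in that order (limma). Sulf1 was named after its value was seen, to complete the count. Hpse was also higher in S7HP+Snail than in LHP (2.00 ± 0.38), as was Adam10 (1.39 ± 0.27; limma adjusted p = 0.0162 and 0.0177). The S7HP calls of Arsg, Hpse, Ids and Sulf2 held in all 15 alternatives, while the S7HP+Snail calls ended without LHP tumor 3 or 6 for Hpse and without LHP tumor 6 for Adam10 (adjusted p up to 0.065 and 0.074). The list's median difference was 0.16 in S7HP against LHP and 0.48 in S7HP+Snail against S7HP.

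Of 9 other tested heparan sulfate proteoglycan genes, 0 rose and 3 fell in S7HP against LHP: perlecan, Hspg2 (-2.55 ± 0.57), Cd44 (-2.24 ± 0.50) and the testican Spock1, which was listed at 0 in 3 of 3 S7HP tumors and at 1.87, 6.65 and 4.24 in LHP tumors 2, 3 and 6 (limma adjusted p = 0.0141, 0.0148 and 0.0422). The median of the 9 was -1.63 in S7HP against LHP and 1.62 in S7HP+Snail against S7HP, comparisons that share the S7HP tumors. The calls ended without LHP tumor 3 or S7HP tumor 9 for all 3, without LHP tumor 6 or S7HP tumor 11 for Hspg2 and Spock1, without LHP tumor 2 for Cd44, and without S7HP tumor 12 or S7HP+Snail tumor 13 for Spock1 (adjusted p up to 0.164). All 3 calls also ended with no filter, and that of Spock1 with a pseudocount of 16. In both comparisons of S7HP+Snail 0 of the 9 were called by limma, with 6 higher and 0 lower than in S7HP and 1 higher and 1 lower than in LHP at an unadjusted p under 0.05.

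Of 14 syndecan partners, 0 rose and 3 fell in S7HP against LHP, the integrins Itgb1 (-1.48 ± 0.30) and Itgav (-1.04 ± 0.27) and the Rac activator Tiam1 (-2.18 ± 0.60; limma adjusted p = 0.01, 0.0275 and 0.0322). In S7HP+Snail against LHP 4 of the 14 fell, Itgb1, Itgav, Itgb3 and the phosphoinositide phosphatase gene Synj2 (limma adjusted p = 0.0335 to 0.0472), and 0 rose, beside 3.87% of all genes lower and 3.35% higher. The S7HP call of Itgb1 held whichever tumor was left out, that of Itgav ended without any 1 LHP tumor or S7HP tumor 11 or 12, and that of Tiam1 without any 1 LHP tumor or S7HP tumor 9 or 11 (adjusted p up to 0.137). Without S7HP+Snail tumor 14 the difference of Itgb3 from LHP was -1.60. The 4 S7HP+Snail calls each ended in 8 to 11 of 15 alternatives, in every case without LHP tumor 3 or 6 or S7HP+Snail tumor 13 or 14, and variously without LHP tumor 2 (Itgb1, Itgav) or a S7HP tumor (9 for Itgb1 and Itgb3, 11 for these and Synj2, 12 for the 3 integrins; adjusted p up to 0.177). In S7HP+Snail against S7HP 0 of the 14 were called by limma, with 1 higher and 6 lower at an unadjusted p under 0.05. Over the 5 lists, 3 of the 65 tested genes rose and 15 fell in S7HP against LHP, beside 9.47% of all genes higher and 9.54% lower. Of the 65, 3 rose and 0 fell in S7HP+Snail against S7HP, beside 1.01% higher and 1.29% lower, and in S7HP+Snail against LHP 3 rose and 7 fell, beside 3.35% higher and 3.87% lower. The genes counted as lower against LHP include Hs3st5, and those lower in S7HP against LHP also include Spock1. Neither gene reached the filter's minimum in any S7HP tumor, so their places in these counts are descriptions.

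**Figure D5:**
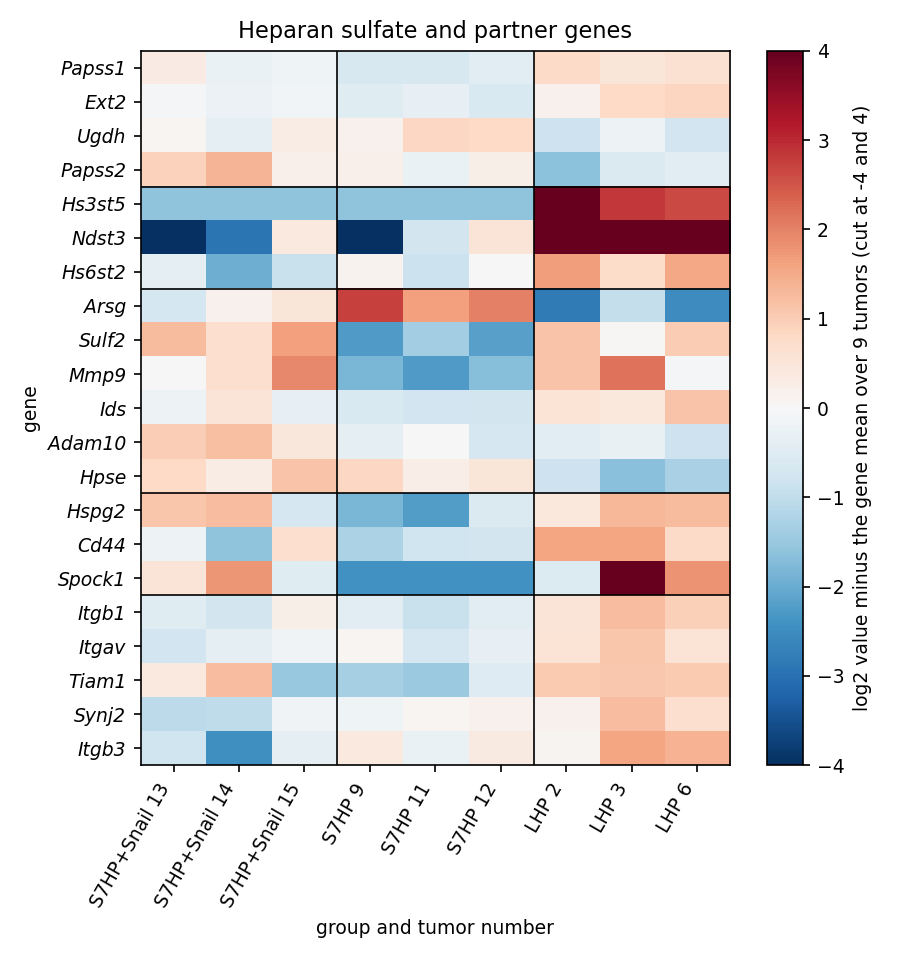
The 21 called genes of the 5 heparan sulfate and partner lists with the smallest adjusted p (up to 4 per list and comparison), 1 per row, against the 9 tumors in columns (S7HP+Snail, S7HP and LHP from left to right). Color gives the log2 value minus the gene's mean over the 9 tumors, cut at -4 and 4. Hs3st5, kept by the filter only through LHP, and Ndst3 are highest in the LHP columns, and Sulf2 is low in the S7HP columns, at 7.79 to 8.66.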

How the data were processed

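Gene expression was measured by 3′ tag sequencing (QuantSeq) of 9 liver tumors, 3 per group, per the labels' protocols. The deposited values are log2(normalized count + 1) for 24421 gene symbols, quantile normalized by the authors. In each library 100% of the values under 200 normalized counts were multiples of 1/9, as averages of ranked counts over 9 libraries would be. Equal totals of the libraries alone would not show this kind of normalization. With such values a difference in total RNA or overall depth between tumors cannot be seen. Bowtie2, edgeR and the build mm10 are named in the submitters' processing notes, and the sources used here give neither strand handling nor original library depths. Because the deposited unit is a log2 value and not a count, limma (version 3.58.1, R 4.3.3) with an intensity trend and robust variances was fitted to all 9 libraries, on the 14215 genes that reached 4 or more in 3 or more libraries. Calls have a Benjamini-Hochberg adjusted p under 0.05 over all of these genes. Shares, sums and ratios within families were compared by exact two-sided permutation tests over tumors, 30 in all. The fit was tested on simulated data with normally distributed noise and a small set of changed genes. That setting lacks groups listed at 0, outlying tumors and the many changed genes seen here, so it does not check the fit for those. Promoter windows came from the RefSeq annotation of GRCm38.p6. Values, alternatives and figures used Python 3.11.15 and matplotlib 3.10.9. The alternatives were another scaling (median centring), no filter or a minimum of 6, a pseudocount of 16, plain variances, only the compared groups, and each library left out in turn.

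The members, gene lists and tests were chosen with earlier results of these data known. Named genes were the 9 members, up to 4 called genes with the smallest adjusted p per list and comparison, and the 3 genes nearest to each called member. Of the marker lists, 6 of 12 hepatocyte markers were higher and 0 lower in S7HP against LHP, as were 2 and 1 of 9 biliary, 0 and 6 of 14 stellate, 0 and 2 of 13 endothelial, 0 and 1 of 12 macrophage, 0 and 1 of 2 B and plasma cell, 0 and 0 of 7 T and NK cell and 0 and 0 of 4 neutrophil markers tested. Of all genes tested, 9.47% were higher and 9.54% lower in that comparison. Protein sequences were not used here.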

Additional observations from a re-analysis of the deposited data

How the results depend on the processing

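No paired analysis was possible because the groups share no replicate numbers. Of 405 values of the 9 members under 15 alternatives, 368 kept their direction and side of the threshold, 18 lost a call, 11 gained one and 8 turned sign. Called members numbered 3 in S7HP against LHP (1 with no filter, which adds genes to the adjustment; 2 to 4 with a library left out), 0 in S7HP+Snail against S7HP (1 with a pseudocount of 16; 0 to 1 with a library left out) and 2 in S7HP+Snail against LHP (0 with no filter, 1 with plain variances; 1 to 3 with a library left out). The fall of Gpc1 in S7HP against LHP held in all 15 alternatives, between -5.02 and -4.27. Median centring moved the median of all genes by at most 0.02. It turned Hs3st5 in S7HP+Snail against S7HP to 0.0043, where all values were listed at 0.

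With a library left out, differences that had not passed changed sign, and the cause was not tested. For S7HP+Snail against S7HP the values ran from -0.30 to 0.062 for Itgav, -0.046 to 0.96 for Sdc2, -2.43 to 0.66 for Ndst3, -0.80 to 0.31 for Sdc1 and -0.028 to 0.47 for Itgb1. For S7HP+Snail against LHP they ran from -0.80 to 0.33 for Mmp9, -0.061 to 0.57 for Gpc2, -0.19 to 0.76 for Gpc6, -1.11 to 0.0020 for Sdc1 and -0.78 to 0.17 for Hspg2. For S7HP against LHP Adam10 ran from -0.0063 to 0.31. The Gpc3 share ran from 32.3 to 36.2 percentage points for S7HP against LHP, from 32.8 to 43.1 for S7HP+Snail against LHP and from -2.03 to 8.24 for S7HP+Snail against S7HP. The Sdc1 share ran from -6.73 to 0.16, from -10.8 to 7.86 and from -6.85 to 11.8 in the same comparisons. The shares were also taken from log2 values, as a gene's log2 value in percent of its family's summed log2 values in each tumor. This is not a share of transcripts. The Sdc1 difference was then 1.05 percentage points for S7HP against LHP and 0.098 for S7HP+Snail against LHP. For S7HP+Snail against S7HP it was -0.95, and the Gpc3 difference was -0.65.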
